A study of Homo sapiens with 8 samples.

Results

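The ATP-binding cassette (ABC) family was taken as every gene of the deposited expression table whose symbol is ABC followed by a subfamily letter from A to G and a number. That rule matched 45 genes of the 18902 analysed, of which 43 are described: 12 in subfamily A, 8 in B, 11 in C, 3 in D, 1 in E, 3 in F and 5 in G. It uses symbols and no measured value. TAP1, TAP2 and CFTR are ABC proteins under other names and are not among them. RNA-seq covered 8 libraries from established lines of human hepatocellular carcinoma, MHCC-97H and MHCC-97L, which share 1 parental line and are known for high and low metastatic potential. The groups were MHCC-97H expressing Flag-OGT, MHCC-97H controls, MHCC-97L expressing Flag-OGT and MHCC-97L controls, with 2 libraries each. Flag-OGT is full-length wild-type human OGT, the enzyme that adds O-linked N-acetylglucosamine to nuclear and cytoplasmic proteins, with a triple Flag tag at its C-terminus, cloned into a lentiviral luciferase vector with an internal ribosome entry site. All cells grew in DMEM with fetal calf serum. The control libraries carry no genotype label, and the sources used here do not say whether they received an empty vector, or whether the Flag-OGT cells were a clone or a pool. Nothing in the labels says that the 2 libraries of a group came from separate cultures, so p-values measure the spread between libraries, which may be technical.

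ABC proteins share a nucleotide-binding domain that hydrolyses ATP, and most use it to move a substrate across a membrane. Subfamilies A and G largely handle sterols and phospholipids, B and C include the multidrug exporters and the mitochondrial carriers, and D proteins serve peroxisomes and lysosomes. E and F proteins have no membrane domain and act on ribosomes. In hepatocytes ABC pumps on the canalicular face secrete bile salts, phospholipid, sterol and conjugated drugs into bile, while others on the sinusoidal face return conjugates to blood. HNF4A and the receptors FXR (NR1H4) and PXR (NR1I2) are known regulators of several of these pumps.

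Start-site sequences are shown for 4 members that moved in the same direction in both lines, ABCC2 and ABCA1 lower and ABCA3 and ABCD4 higher with Flag-OGT. They are the RefSeq windows on GRCh38.p14, 250 bases before to 50 bases after the start, with each CpG dinucleotide in capitals. They lie at chr10:99782390-99782689 on the plus strand for ABCC2, chr9:104928106-104928405 on the minus strand for ABCA1, chr16:2340679-2340978 on the minus strand for ABCA3 and chr14:74302885-74303184 on the minus strand for ABCD4. The expression values were made on hg19, and no coordinate was carried between the builds.
ABCC2: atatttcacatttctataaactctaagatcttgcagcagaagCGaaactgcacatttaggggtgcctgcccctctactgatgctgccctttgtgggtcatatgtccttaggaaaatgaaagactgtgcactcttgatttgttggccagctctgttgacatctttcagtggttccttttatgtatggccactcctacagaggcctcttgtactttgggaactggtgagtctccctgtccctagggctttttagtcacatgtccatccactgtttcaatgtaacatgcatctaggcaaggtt
ABCA1: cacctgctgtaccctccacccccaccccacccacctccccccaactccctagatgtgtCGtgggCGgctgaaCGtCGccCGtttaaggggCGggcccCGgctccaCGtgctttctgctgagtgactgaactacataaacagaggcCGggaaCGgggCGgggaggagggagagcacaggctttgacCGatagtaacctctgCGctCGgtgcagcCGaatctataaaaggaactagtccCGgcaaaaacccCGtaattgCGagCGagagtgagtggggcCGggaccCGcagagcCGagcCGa
ABCA3: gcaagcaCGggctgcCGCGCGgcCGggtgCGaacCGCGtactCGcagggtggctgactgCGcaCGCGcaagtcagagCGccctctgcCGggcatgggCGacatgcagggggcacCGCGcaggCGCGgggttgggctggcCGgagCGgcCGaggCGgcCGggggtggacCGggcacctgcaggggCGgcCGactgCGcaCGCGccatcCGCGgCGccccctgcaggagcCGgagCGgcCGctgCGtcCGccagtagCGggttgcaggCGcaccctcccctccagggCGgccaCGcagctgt
ABCD4: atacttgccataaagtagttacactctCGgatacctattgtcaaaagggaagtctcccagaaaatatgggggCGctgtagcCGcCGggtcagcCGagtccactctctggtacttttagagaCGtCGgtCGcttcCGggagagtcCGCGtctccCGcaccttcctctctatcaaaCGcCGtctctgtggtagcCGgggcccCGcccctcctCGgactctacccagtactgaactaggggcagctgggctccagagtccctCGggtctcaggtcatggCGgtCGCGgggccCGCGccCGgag
The ABCC2 window holds 1 CpG, against 23 for ABCA1, 42 for ABCA3 and 24 for ABCD4, so the members that were lower include both a CpG-poor and a CpG-rich start. RefSeq windows matched 35 of the 43 members by symbol, 12 of them with several starts, which made 53 windows with a median of 19 CpG (quartiles 3 and 29). The 35116 windows of all genes had a median of 14 (quartiles 4 and 28). The following short motifs were searched on both strands, and their counts may share bases. The antioxidant response core TGACNNNGC was found in 12 of the 53 member windows and in 13.3% of all windows, among them those of ABCA3, ABCD4 and ABCG2. GGGAGGA, part of the sequence ZNF263 is known to bind, was found in 9 of 53 member windows and in 18.1% of all windows, ABCA1 included. The HNF4A core CAAAGTCCA occurred in none of the 53 and in 0.384% of all windows. A match is a run of letters and not a site, and no match says only that the letters are absent from these 300 bases. ABCA4, ABCA8, ABCB4, ABCB5, ABCC1, ABCC3, ABCC8 and ABCG1 have no window here.

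The Flag-OGT libraries stood far apart from the controls over the whole transcriptome. Replicate libraries correlated at 0.997 to 0.999 over the tested genes, libraries of the other line in the same state at 0.957 to 0.963, and libraries of the same line in the other state at 0.725 to 0.753. Each Flag-OGT library was thus closer to those of the other line than to the controls of its own line. Whether these libraries come from the labelled lines was not tested, and every Flag-OGT value below is that of a library so labelled. OGT itself was measured at 59.0 and 58.4 FPKM (fragments per kilobase of transcript, scaled to the mapped fragments) with Flag-OGT and 32.5 and 34.2 FPKM in controls of MHCC-97H, and at 51.0 and 54.5 FPKM with Flag-OGT and 45.7 and 43.9 FPKM in controls of MHCC-97L. Most markers of the labelled cell type were lower in the Flag-OGT libraries. The 19 hepatocyte markers summed to 6.87 to 12.3 FPKM there, against 92.2 to 235 FPKM in controls, and the simple epithelial keratin and adhesion genes summed to 19.1 to 29.9 FPKM there, against 5674 to 6619 FPKM in controls. Of 12 tested hepatocyte markers, 2 were called higher and 9 lower by the MHCC-97H comparison, and 1 higher and 11 lower by that of MHCC-97L. CPS1, the first enzyme of the urea cycle, rose in both, at 8.29 and 8.79 FPKM with Flag-OGT against 0 and 0.01 FPKM in controls of MHCC-97H, and at 2.59 and 3.43 FPKM with Flag-OGT against 0.03 and 0.01 FPKM in controls of MHCC-97L. The 4 epithelial genes that could be tested all fell in both lines, KRT8 to 5.62 to 12.03 FPKM with Flag-OGT against 3735 to 4140 FPKM in controls. HNF4A was listed at 0.01 to 0.04 FPKM with Flag-OGT and at 13.4 to 14.6 FPKM in controls. Sums were also lower for cholangiocyte markers (2.93 to 4.06 FPKM with Flag-OGT, 489 to 787 FPKM in controls), endothelial markers (0.66 to 1.57 FPKM with Flag-OGT, 33.5 to 46.4 FPKM in controls) and leukocyte markers (3.48 to 9.64 FPKM with Flag-OGT, 69.3 to 82.5 FPKM in controls), while fibroblast or stellate markers summed to 14.6 to 20.9 FPKM with Flag-OGT and 4.54 to 12.2 FPKM in controls. In controls most of the leukocyte sum was CD68, at 63.4 to 79.8 FPKM against 0.97 to 2.38 FPKM with Flag-OGT. LYZ was higher with Flag-OGT in MHCC-97L, at 4.53 and 4.84 FPKM against 2.23 and 3.35 FPKM in controls. Of 3 tested fibroblast or stellate markers, 2 were called higher (COL1A1 and ACTA2) and 1 lower (LUM) in each line. The part of these marker genes in the ABC results was not tested, and since every Flag-OGT library is set apart in this way no comparison can be given without them. The read depth of the libraries is unknown, because the table holds FPKM only, rounded to 0.01.

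Of the 43 ABC genes, 30 passed a mean of 0.5 FPKM over the 8 libraries and were tested together with all other genes that passed, on log2(FPKM + 1), with limma. A gene was called at a Benjamini-Hochberg adjusted p under 0.05 over all 13553 genes, and every log2 difference below is on that scale, which understates the change of genes near or under 1 FPKM. With Flag-OGT in MHCC-97H, 25 of the 30 were called, 12 higher and 13 lower, where 84.6% of all tested genes were called (48.2% higher and 36.3% lower). With Flag-OGT in MHCC-97L, 28 of the 30 were called, 13 higher and 15 lower, where 84.8% of all tested genes were called (50.1% higher and 34.7% lower). The shares called lie near the background. The same shares over all tested genes stand beside the counts by role given below. The median log2 difference of the 30 was 0.03 in MHCC-97H and -0.23 in MHCC-97L, beside 0.15 and 0.19 over all tested genes. Median-of-ratios scaling brought the median over all tested genes to 0.00 in MHCC-97H and 0.02 in MHCC-97L, so differences of about that size depend on the scaling. Lower levels by at least 1 on the log2 scale were called for 5 members in MHCC-97H and 10 in MHCC-97L, where 16.0% and 16.1% of all tested genes met the same rule, and higher ones for 4 in each line, where 22.3% and 18.6% did. The mean of one state was below the filter for 3 members that passed through the Flag-OGT libraries, ABCA5, ABCC8 and ABCG4, and for 6 that passed through the controls, ABCA1, ABCA4, ABCB1, ABCC2, ABCC3 and ABCG1. Over both lines together, the direction of these members was set by passing the filter, here and wherever they are named below. Of the 6, ABCA1, ABCB1 and ABCG1 passed it through the MHCC-97L controls alone. For ABCB1 and ABCG1 that also set the direction of the difference between the control lines and of the difference between the changes.

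Between the lines, 12 members fell in both, 9 rose in both and 2 moved in opposite directions. The 12 were ABCA1, ABCA4, ABCA7, ABCB1, ABCB6, ABCC1, ABCC2, ABCC3, ABCC9, ABCD3, ABCF3 and ABCG2, and the 9 were ABCA3, ABCB8, ABCB9, ABCB10, ABCC4, ABCC8, ABCC10, ABCD4 and ABCG4. Of the 12, ABCA1, ABCA4, ABCB1, ABCC2 and ABCC3 passed the filter through the controls alone. Of the 9, ABCC8 and ABCG4 passed it through the Flag-OGT libraries alone. Among those 9, ABCB8, ABCB9 and ABCC10 lost the call in at least 1 line under another scaling, and ABCB8 and ABCC10 also when a library was left out. ABCA2 and ABCG1 rose in MHCC-97H and fell in MHCC-97L. ABCC5 and ABCE1 were called in MHCC-97H and not in MHCC-97L, and ABCA5, ABCB5, ABCC6, ABCF1 and ABCF2 in MHCC-97L and not in MHCC-97H. Under median-of-ratios scaling ABCC5 and ABCE1 were also called in MHCC-97L, both as lower. Over all 13553 tested genes, 27.4% fell in both lines, 40.0% rose in both, 6.6% moved in opposite directions, 10.6% were called in MHCC-97H and not in MHCC-97L, and 10.8% in MHCC-97L and not in MHCC-97H, and nothing particular to the family is read from its counts. Of the 7 members called in 1 line, the change itself differed between the lines for ABCC5, ABCE1, ABCB5, ABCC6, ABCF1 and ABCF2, by limma at the same threshold. That of ABCB5 was lost without MHCC-97H control replicate 1 (adjusted p = 0.0557), and for ABCA5 the difference of the changes was not called (-0.30 ± 0.12, adjusted p = 0.0504).

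**Figure D1:**
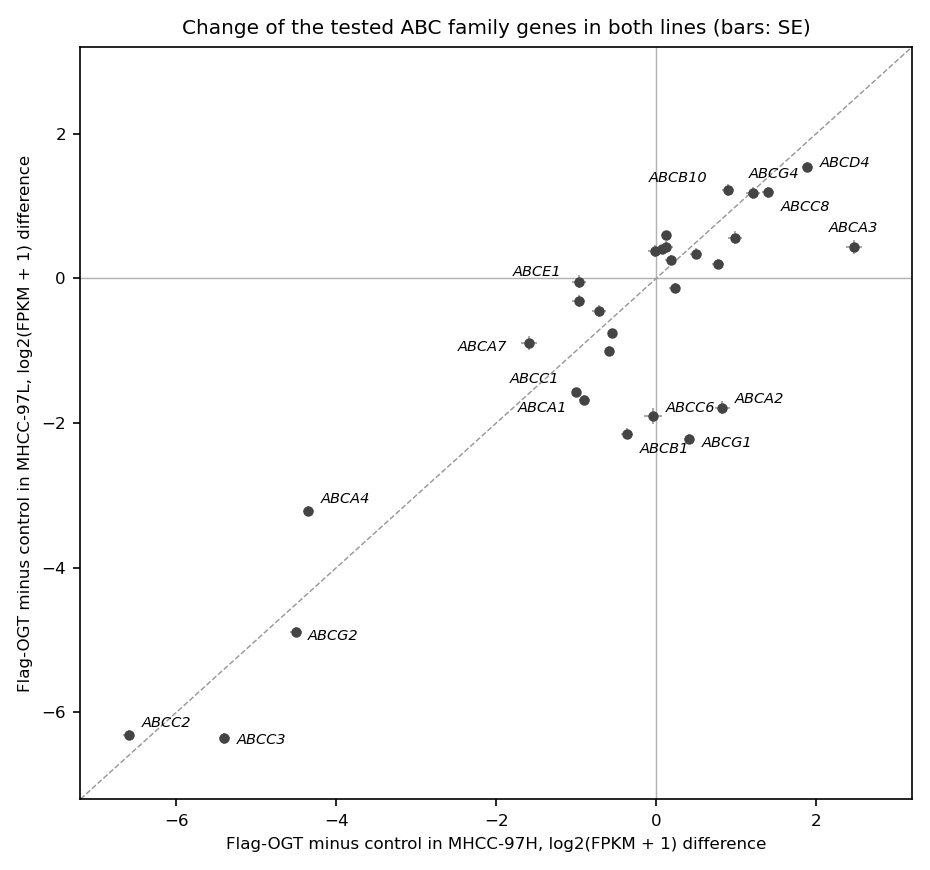
Log2 difference of Flag-OGT minus control in MHCC-97H (x axis) and MHCC-97L (y axis) for the 30 tested ABC genes, on the log2(FPKM + 1) scale, with bars for the standard error and a dashed line of equal change. ABCC2, ABCC3, ABCG2 and ABCA4 lie far down in both lines, while ABCA2, ABCG1, ABCB1 and ABCC6 lie below the line with changes between -0.36 and 0.83 in MHCC-97H and between -2.22 and -1.79 in MHCC-97L.

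Among the bile and conjugate exporters, ABCC2 and ABCC3 were abundant in the controls and nearly undetected with Flag-OGT. These genes, ranked 1 and 3 among the ABC genes of the MHCC-97H controls, were measured below 0.6 FPKM in every Flag-OGT library. Of the 7 members with this role 3 could be tested, none rose, 2 fell in MHCC-97H and all 3 fell in MHCC-97L, where ABCC2 and ABCC3 passed the filter through the controls alone. ABCC2 (MRP2), the canalicular pump for glutathione and glucuronide conjugates and bilirubin, was measured at 0.13 and 0.21 FPKM with Flag-OGT against 109 and 115 FPKM in controls of MHCC-97H. In MHCC-97L it was measured at 0.55 and 0.47 FPKM with Flag-OGT against 123 and 115 FPKM in controls. All 4 control libraries were thus above 100 FPKM and no Flag-OGT library reached 1 FPKM. The log2 difference was -6.59 ± 0.07 (SE, n = 2 libraries per group) in MHCC-97H and -6.31 ± 0.07 in MHCC-97L (limma, adjusted p = 6.89e-13 and 1.05e-12). In bulk RNA, fewer cells of a type and less RNA per cell cannot be told apart.

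ABCC3 (MRP3), which moves glucuronides and bile salts across the basolateral membrane, was measured at 0.36 and 0.21 FPKM with Flag-OGT against 54.7 and 51.7 FPKM in controls of MHCC-97H. In MHCC-97L it was measured at 0.09 and 0.07 FPKM with Flag-OGT against 86.9 and 88.3 FPKM in controls. Control and Flag-OGT libraries were again well separated, and the MHCC-97L controls were the highest. Its log2 difference was -5.40 ± 0.07 in MHCC-97H and -6.36 ± 0.07 in MHCC-97L (limma, adjusted p = 2.58e-12 and 1.23e-12). The ABCC3 decrease was larger in MHCC-97L, with a difference of the changes of 0.96 ± 0.10 (limma, adjusted p = 3.47e-05). ABCC6 (MRP6), whose loss causes pseudoxanthoma elasticum, did not follow them: it was measured at 6.36 and 4.97 FPKM with Flag-OGT and 6.19 and 5.47 FPKM in controls of MHCC-97H, groups that overlapped. In MHCC-97L it was measured at 2.80 and 2.49 FPKM with Flag-OGT and 11.8 and 13.4 FPKM in controls. The ABCC6 log2 difference was -0.04 ± 0.11 in MHCC-97H (limma, adjusted p = 0.737) and -1.90 ± 0.11 in MHCC-97L (adjusted p = 6.82e-08), and the 2 changes differed by 1.86 ± 0.16 (adjusted p = 6.57e-06). ABCC6 has 2 annotated pseudogenes of close sequence, and the sources used here do not say how the counting divided their reads.

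The other 4 bile exporters were too low to be tested. ABCB11, the bile salt export pump, was listed at 0 and 0.01 FPKM with Flag-OGT against 0.26 and 0.14 FPKM in controls of MHCC-97H, and at 0.02 and 0 FPKM with Flag-OGT against 0.14 and 0.20 FPKM in controls of MHCC-97L. ABCB4 (MDR3), the canalicular phosphatidylcholine floppase, was measured at 0.24 and 0.19 FPKM with Flag-OGT and 0.04 and 0.07 FPKM in controls of MHCC-97H. In MHCC-97L it stood at 0.13 and 0.07 FPKM with Flag-OGT and 0.95 and 0.97 FPKM in controls. MHCC-97L controls thus held the highest ABCB4 values of the 8 libraries, all below 1 FPKM. In the fit without a filter ABCB4 was called higher in MHCC-97H (0.20 ± 0.04, limma, adjusted p = 0.00337) and lower in MHCC-97L (-0.83 ± 0.04, adjusted p = 9.37e-06). ABCG5 and ABCG8, which together form the canalicular sterol exporter, did not exceed 0.12 and 0.22 FPKM in any library. The hepatocyte marker sums given above moved with ABCC2 and ABCC3, and their part was not tested.

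Drug efflux pumps were split. Of 9 members 7 were tested, with 3 higher and 3 lower in each line: ABCG2, ABCC1 and ABCB1 fell in both, ABCC4 and ABCC10 rose in both, and ABCC5 rose in MHCC-97H and ABCB5 in MHCC-97L. ABCG2 (BCRP), which exports sulfated steroids, porphyrins and many drugs, was measured at 0.81 and 0.88 FPKM with Flag-OGT against 39.2 and 42.9 FPKM in controls of MHCC-97H. It was measured at 0.32 and 0.43 FPKM with Flag-OGT against 40.2 and 39.3 FPKM in controls of MHCC-97L. The control lines lay within 4 FPKM of each other, and every Flag-OGT library was below 1 FPKM. By ratio of group means the level was 48.5-fold lower in MHCC-97H and 106-fold lower in MHCC-97L, and the log2 difference was -4.51 ± 0.07 and -4.89 ± 0.07 (limma, adjusted p = 5.73e-12 and 4.14e-12).

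ABCC1 (MRP1), the basolateral exporter of glutathione conjugates and leukotriene C4, stayed among the higher ABC genes in all libraries. With Flag-OGT it was measured at 19.5 and 19.4 FPKM, against 41.0 and 38.9 FPKM in controls, in MHCC-97H, and at 14.5 and 14.5 FPKM, against 45.0 and 44.9 FPKM in controls, in MHCC-97L. The level was 2.05-fold lower in MHCC-97H and 3.10-fold lower in MHCC-97L, with log2 differences of -1.0 ± 0.05 and -1.57 ± 0.05 (limma, adjusted p = 3.14e-08 and 1.20e-09). The decrease was larger in MHCC-97L, with a difference of the changes of 0.57 ± 0.08 (adjusted p = 0.000131). ABCB1 (MDR1 or P-glycoprotein), the classic multidrug pump, was measured at 0.35 and 0.29 FPKM with Flag-OGT and 0.78 and 0.62 FPKM in controls of MHCC-97H. In MHCC-97L it was measured at 0.19 and 0.21 FPKM with Flag-OGT and 4.44 and 4.21 FPKM in controls. Only the MHCC-97L controls exceeded 1 FPKM. The ABCB1 log2 difference was -0.36 ± 0.07 in MHCC-97H and -2.15 ± 0.07 in MHCC-97L (limma, adjusted p = 0.00102 and 1.35e-09), and these differed by 1.79 ± 0.10 (adjusted p = 7.04e-07).

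With the scaling as reported, the 4 remaining tested drug pumps were either higher or not called with Flag-OGT. ABCC4 (MRP4), an exporter of cyclic nucleotides, prostaglandins and bile salts, was measured at 3.89 and 4.19 FPKM with Flag-OGT and 1.52 and 1.57 FPKM in controls of MHCC-97H, and at 2.07 and 2.62 FPKM with Flag-OGT and 1.32 and 1.19 FPKM in controls of MHCC-97L. It was 2.61-fold and 1.87-fold higher in the 2 lines, with log2 differences of 0.99 ± 0.09 and 0.56 ± 0.09 (limma, adjusted p = 2.14e-06 and 0.000168). The control and Flag-OGT libraries did not overlap in either line. ABCC5 (MRP5), a nucleotide analogue exporter, averaged 9.29 and 7.47 FPKM with Flag-OGT in MHCC-97H and MHCC-97L, beside 7.77 and 8.29 FPKM in their controls. In MHCC-97L its log2 difference of -0.14 was not called (limma, adjusted p = 0.0963). Under common-sum and median-of-ratios scaling it was called lower there, at -0.24 and -0.32 (adjusted p = 0.0104 and 0.00111). Its call in MHCC-97H (log2 difference 0.23, limma adjusted p = 0.0111) was lost without Flag-OGT MHCC-97H replicate 1 (adjusted p = 0.088), without MHCC-97H control replicate 1 (adjusted p = 0.0528) and under median-of-ratios scaling. ABCC10 (MRP7), a taxane exporter, averaged 9.10 and 7.88 FPKM with Flag-OGT in MHCC-97H and MHCC-97L, beside 7.90 and 6.43 FPKM in their controls. Both ABCC10 calls (log2 differences 0.18 and 0.26, adjusted p = 0.0336 and 0.00632) were lost under common-sum and median-of-ratios scaling. The first was also lost without Flag-OGT MHCC-97H replicate 2 or control replicate 2 (adjusted p = 0.213 and 0.157), and the second without MHCC-97L control replicate 1 (adjusted p = 0.0557). ABCB5, known as a marker of melanoma-initiating cells, was measured at 0.47 and 0.49 FPKM with Flag-OGT and 0.57 and 0.42 FPKM in controls of MHCC-97H, and at 1.49 and 1.18 FPKM with Flag-OGT and 0.80 and 0.78 FPKM in controls of MHCC-97L. ABCC11 and ABCC12 did not exceed 0.52 and 0.40 FPKM in any library and were not tested.

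**Figure D2:**
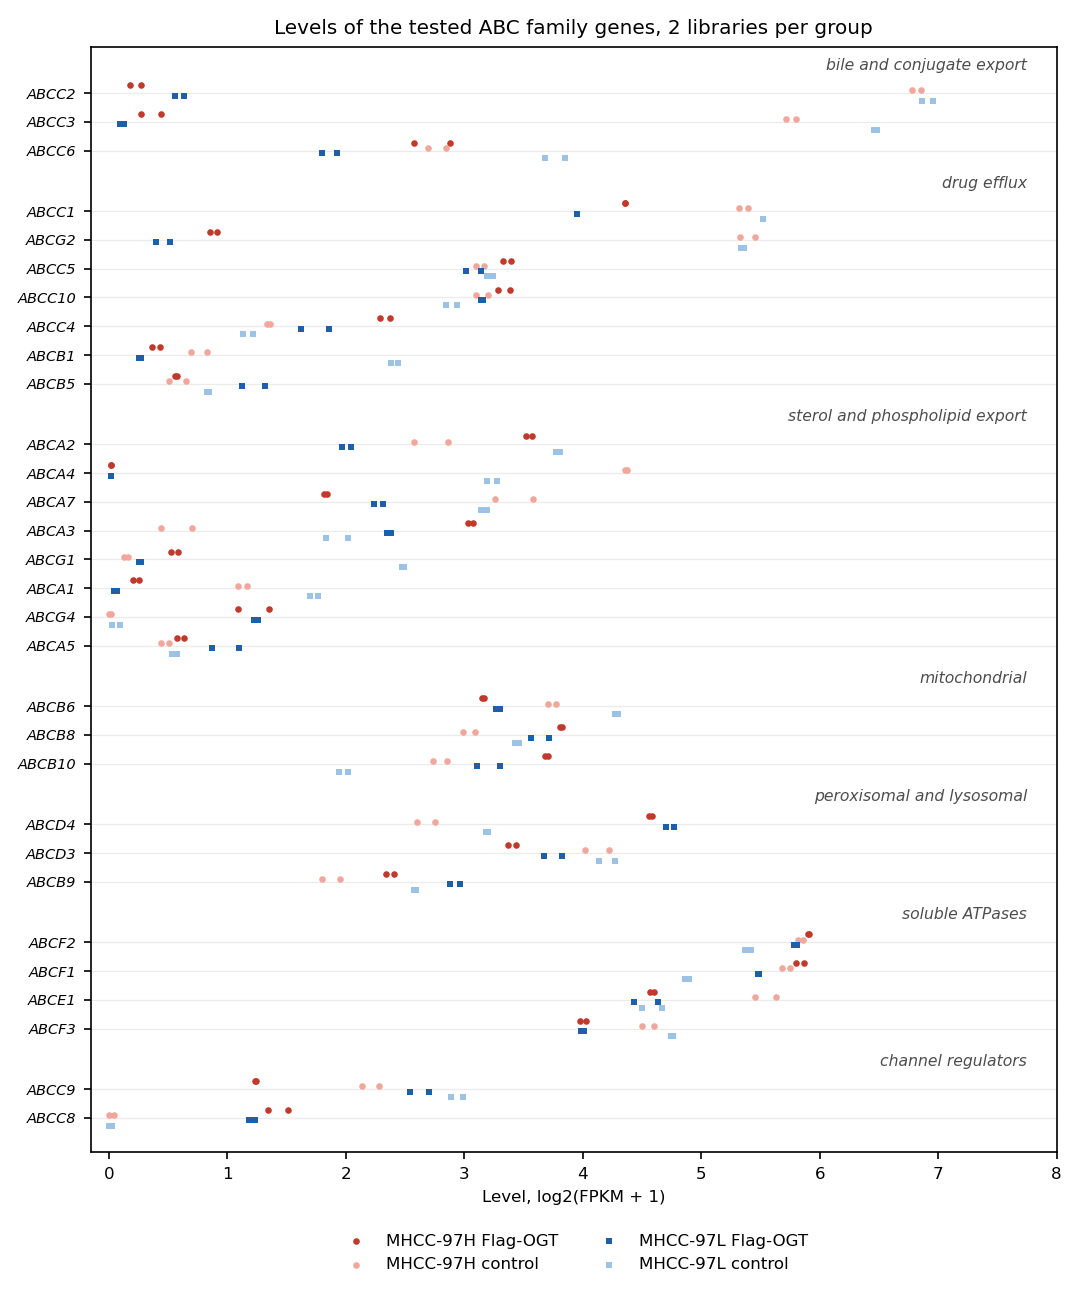
Level in each library, as log2(FPKM + 1), of the 30 tested ABC genes ordered by role and, within a role, by mean FPKM. Points are single libraries, 2 per group, with Flag-OGT in dark and controls in pale colours, circles for MHCC-97H and squares for MHCC-97L. ABCC2, ABCC3, ABCG2 and ABCA4 lie near 0 in the Flag-OGT libraries and high in the controls, and ABCC8 and ABCG4 show the reverse at levels below 2.

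Changes with Flag-OGT differed between the lines by at least 1 on the log2 scale for 6 of the 30 tested members. Over all tested genes, 9.08% were higher by that much in MHCC-97H and 3.31% lower. Of the 6 members, 4 were sterol and phospholipid transporters, a role the figures label as export. Their difference was positive for ABCA2, ABCA3 and ABCG1 and negative for ABCA4. Of the 14 members with this role 8 were tested, with 4 higher and 3 lower in MHCC-97H and 3 higher and 5 lower in MHCC-97L. ABCA1, which loads cholesterol and phospholipid onto apolipoprotein A-I, was measured at 0.19 and 0.15 FPKM with Flag-OGT against 1.13 and 1.24 FPKM in controls of MHCC-97H, and at 0.03 and 0.05 FPKM with Flag-OGT against 2.40 and 2.25 FPKM in controls of MHCC-97L. The gene was low in all 8 libraries and lowest in MHCC-97L with Flag-OGT. The log2 difference was -0.90 ± 0.07 in MHCC-97H and -1.68 ± 0.07 in MHCC-97L (limma, adjusted p = 5.46e-07 and 4.80e-09). ABCG1, which moves cholesterol towards high-density lipoprotein, was measured at 0.44 and 0.50 FPKM with Flag-OGT and 0.12 and 0.09 FPKM in controls of MHCC-97H, but at 0.21 and 0.19 FPKM with Flag-OGT and 4.57 and 4.61 FPKM in controls of MHCC-97L. Its log2 difference was 0.41 ± 0.07 in MHCC-97H and -2.22 ± 0.07 in MHCC-97L (limma, adjusted p = 0.000187 and 4.31e-10). The difference of the changes, 2.63 ± 0.09 (adjusted p = 3.65e-08), was the widest of the 30 members, although both MHCC-97H groups stayed at or below 0.50 FPKM.

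ABCA2, a lysosomal lipid transporter best known from myelinating glia, was measured at 10.5 and 10.9 FPKM with Flag-OGT against 6.27 and 4.95 FPKM in controls of MHCC-97H. In MHCC-97L the order was the reverse, with 3.13 and 2.92 FPKM with Flag-OGT against 12.7 and 13.0 FPKM in controls. The level was 1.90-fold higher in MHCC-97H and 4.26-fold lower in MHCC-97L, with log2 differences of 0.83 ± 0.09 and -1.79 ± 0.09 (limma, adjusted p = 1.14e-05 and 2.84e-08) that differed by 2.61 ± 0.13 (adjusted p = 2.70e-07). ABCA3, the phospholipid transporter of lung lamellar bodies, rose in both lines, and more in MHCC-97H. It was measured at 7.18 and 7.40 FPKM with Flag-OGT against 0.63 and 0.36 FPKM in controls of MHCC-97H, and at 4.22 and 4.09 FPKM with Flag-OGT against 2.56 and 3.06 FPKM in controls of MHCC-97L. The ABCA3 log2 difference was 2.48 ± 0.10 in MHCC-97H and 0.44 ± 0.10 in MHCC-97L (limma, adjusted p = 3.29e-09 and 0.00192), and the changes differed by 2.04 ± 0.14 (adjusted p = 1.91e-06).

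ABCA4, the retinal transporter of N-retinylidene-phosphatidylethanolamine whose loss causes Stargardt disease, was high for a gene known from photoreceptors. It was listed at 0.01 FPKM in all 4 Flag-OGT libraries, against 19.5 and 19.7 FPKM in MHCC-97H controls and 8.16 and 8.66 FPKM in MHCC-97L controls. The log2 difference was -4.35 ± 0.07 in MHCC-97H and -3.22 ± 0.07 in MHCC-97L (limma, adjusted p = 4.30e-12 and 3.21e-11). ABCA7, a phospholipid exporter linked to phagocytosis and to Alzheimer disease risk, was measured at 2.59 and 2.52 FPKM with Flag-OGT against 11.0 and 8.59 FPKM in controls of MHCC-97H, and at 3.97 and 3.73 FPKM with Flag-OGT against 7.82 and 8.14 FPKM in controls of MHCC-97L. The 3.83-fold lower level in MHCC-97H and the 2.07-fold lower level in MHCC-97L gave log2 differences of -1.59 ± 0.10 and -0.89 ± 0.10 (limma, adjusted p = 9.78e-08 and 1.10e-05). ABCG4, a sterol exporter close to ABCG1 and known mainly from brain, was measured at 1.13 and 1.55 FPKM with Flag-OGT and 0 and 0.01 FPKM in controls of MHCC-97H, and at 1.34 and 1.40 FPKM with Flag-OGT and 0.02 and 0.07 FPKM in controls of MHCC-97L. ABCG4 was thus above 1 FPKM in every Flag-OGT library and at most 0.07 FPKM in the controls, with log2 differences of 1.21 ± 0.09 and 1.18 ± 0.09 (limma, adjusted p = 3.95e-07 and 5.33e-07). It passed the filter through the Flag-OGT libraries alone, so over both lines its direction was set by the filter. ABCA5, a lysosomal member, averaged 0.52 and 0.99 FPKM with Flag-OGT in MHCC-97H and MHCC-97L, beside 0.39 and 0.47 FPKM in their controls, and was called in MHCC-97L (log2 difference 0.43, limma adjusted p = 0.00082). Its 4 chromosome 17 neighbours ABCA6, ABCA8, ABCA9 and ABCA10, like ABCA12 and ABCA13, stayed at or below 0.66 FPKM in every library.

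Mitochondrial half-transporters were measured at several FPKM in every library. The 3 described here were all tested, with 2 higher and 1 lower in each line. ABCB10, an inner-membrane protein needed for haem synthesis and stabilised with mitoferrin, was measured at 12.1 and 11.9 FPKM with Flag-OGT against 5.67 and 6.23 FPKM in controls of MHCC-97H, and at 7.64 and 8.84 FPKM with Flag-OGT against 3.05 and 2.85 FPKM in controls of MHCC-97L. It was 2.01-fold and 2.79-fold higher, with log2 differences of 0.90 ± 0.08 and 1.22 ± 0.08 (limma, adjusted p = 2.05e-06 and 1.89e-07). ABCB10 has 3 annotated pseudogenes, and the sources used here do not say how the counting divided their reads. ABCB6, linked to porphyrin transport, moved the other way. Its values were 7.96 and 7.87 FPKM with Flag-OGT against 12.1 and 12.7 FPKM in controls of MHCC-97H, and 8.88 and 8.62 FPKM with Flag-OGT against 18.6 and 18.3 FPKM in controls of MHCC-97L, a log2 difference of -0.59 ± 0.06 and -1.0 ± 0.06 (limma, adjusted p = 5.22e-06 and 8.25e-08). In GENCODE, 54.7% of the ABCB6 exon bases are shared on the same strand with the overlapping gene AC068946.2, so its values are uncertain.

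ABCB8, a mitochondrial member linked to iron homeostasis, was measured at 13.2 and 13.0 FPKM with Flag-OGT against 7.54 and 6.94 FPKM in controls of MHCC-97H, and at 12.2 and 10.9 FPKM with Flag-OGT against 9.74 and 10.0 FPKM in controls of MHCC-97L. The increase was 0.77 ± 0.07 on the log2 scale in MHCC-97H (limma, adjusted p = 2.53e-06). In MHCC-97L it was 0.20 ± 0.07 (adjusted p = 0.024), a call lost under both other scalings and without Flag-OGT MHCC-97L replicate 1 (adjusted p = 0.159), MHCC-97L control replicate 1 (adjusted p = 0.104) or MHCC-97L control replicate 2 (adjusted p = 0.0602).

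Peroxisomal and lysosomal members moved in different directions. Of 4 members described here 3 were tested, with 2 higher and 1 lower in each line: the peroxisomal ABCD3 fell and the lysosomal ABCD4 and ABCB9 rose. ABCD3 (PMP70), which imports branched-chain and bile acid intermediates, fell in both lines. It was measured at 9.36 and 9.84 FPKM with Flag-OGT against 15.2 and 17.7 FPKM in controls of MHCC-97H, and at 11.8 and 13.2 FPKM with Flag-OGT against 16.6 and 18.3 FPKM in controls of MHCC-97L, with log2 differences of -0.72 ± 0.09 and -0.45 ± 0.09 (limma, adjusted p = 2.28e-05 and 0.000712).

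ABCD4, which with LMBRD1 releases cobalamin from lysosomes, had the highest FPKM with Flag-OGT of the 9 members called higher in both lines. With Flag-OGT it was measured at 22.9 and 22.6 FPKM against 5.76 and 5.08 FPKM in controls of MHCC-97H, and at 25.0 and 26.4 FPKM against 8.19 and 8.09 FPKM in controls of MHCC-97L. It was 4.20-fold and 3.15-fold higher, with log2 differences of 1.89 ± 0.07 and 1.55 ± 0.07 (limma, adjusted p = 1.49e-09 and 8.28e-09). ABCB9, a lysosomal peptide transporter, averaged 4.18 and 6.59 FPKM with Flag-OGT in MHCC-97H and MHCC-97L, beside 2.68 and 4.99 FPKM in their controls, with log2 differences of 0.50 ± 0.08 and 0.34 ± 0.08 (limma, adjusted p = 0.000123 and 0.00171). The MHCC-97L call of ABCB9 was lost under median-of-ratios scaling, and 24.5% of its exon bases lie opposite genes on the other strand, while the sources used here do not say whether counting used strand. ABCD2, a peroxisomal importer of very-long-chain acyl-CoA, did not exceed 0.44 FPKM.

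The soluble ATPases, which are not transporters, made up the largest share of the summed ABC FPKM in the Flag-OGT libraries. They also did so narrowly in the MHCC-97H controls, at 32.1% and 33.1% beside 31.9% and 31.7% for bile and conjugate exporters. All 4 soluble ATPases were tested, with 0 higher and 2 lower in MHCC-97H and 2 higher and 1 lower in MHCC-97L. ABCE1, which splits ribosomes after termination, was measured at 23.3 and 22.7 FPKM with Flag-OGT against 42.9 and 48.7 FPKM in controls of MHCC-97H, but at 20.6 and 23.9 FPKM with Flag-OGT against 24.4 and 21.6 FPKM in controls of MHCC-97L, groups that overlapped. The log2 difference of ABCE1 was -0.96 ± 0.09 in MHCC-97H (limma, adjusted p = 2.81e-06) and -0.05 ± 0.09 in MHCC-97L (adjusted p = 0.618), and the changes differed by -0.91 ± 0.13 (adjusted p = 0.00018). The MHCC-97H controls thus stood alone, above the other groups. Under median-of-ratios scaling the ABCE1 difference in MHCC-97L was -0.25 and was called (limma, adjusted p = 0.0176).

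ABCF1, which promotes translation initiation with eIF2, was measured at 57.3 and 54.8 FPKM with Flag-OGT and 50.4 and 52.8 FPKM in controls of MHCC-97H, and at 43.8 and 43.7 FPKM with Flag-OGT and 28.1 and 28.8 FPKM in controls of MHCC-97L. The MHCC-97L increase was 0.60 ± 0.05 on the log2 scale (limma, adjusted p = 1.78e-06), and that in MHCC-97H, 0.12 ± 0.05, was not called (adjusted p = 0.0605). ABCF2, less well understood, was measured at 58.7 and 59.2 FPKM with Flag-OGT and 55.3 and 57.1 FPKM in controls of MHCC-97H, and at 55.0 and 54.1 FPKM with Flag-OGT and 41.9 and 40.3 FPKM in controls of MHCC-97L. The MHCC-97L difference was 0.40 ± 0.05 (limma, adjusted p = 3.05e-05), and the MHCC-97H difference of 0.07 ± 0.05 was not called and turned to -0.13 under median-of-ratios scaling. ABCF2 shares 45.8% of its exon bases on the same strand with AC021097.2 and has 2 annotated pseudogenes, so its level is uncertain. ABCF3, of the same subfamily, was measured at 15.3 and 14.7 FPKM with Flag-OGT against 23.3 and 21.6 FPKM in controls of MHCC-97H, and at 14.9 and 15.1 FPKM with Flag-OGT against 25.8 and 26.2 FPKM in controls of MHCC-97L. Its log2 differences were -0.55 ± 0.06 and -0.76 ± 0.06 (limma, adjusted p = 9.50e-06 and 7.75e-07).

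Sulphonylurea receptors, the ABC proteins that gate ATP-sensitive potassium channels, moved in opposite directions. ABCC8 (SUR1), the subunit of the pancreatic beta cell channel, was measured at 1.53 and 1.85 FPKM with Flag-OGT and 0.03 and 0 FPKM in controls of MHCC-97H, and at 1.35 and 1.27 FPKM with Flag-OGT and 0.02 and 0 FPKM in controls of MHCC-97L. Every Flag-OGT library was above 1 FPKM and no control exceeded 0.03 FPKM, with log2 differences of 1.40 ± 0.08 and 1.19 ± 0.08 (limma, adjusted p = 3.68e-08 and 1.50e-07). ABCC8 passed the filter through the Flag-OGT libraries alone, so over both lines its direction was set by the filter. ABCC9 (SUR2), the subunit of muscle and vascular channels, was measured at 1.35 and 1.37 FPKM with Flag-OGT against 3.85 and 3.41 FPKM in controls of MHCC-97H, and at 4.83 and 5.51 FPKM with Flag-OGT against 6.41 and 6.96 FPKM in controls of MHCC-97L. The ABCC9 log2 difference was -0.97 ± 0.08 and -0.32 ± 0.08 (limma, adjusted p = 1.40e-06 and 0.00477). The pore subunits that pair with them, KCNJ8 and KCNJ11, both rose in both lines. KCNJ8 was measured at 10.7 and 11.8 FPKM with Flag-OGT in MHCC-97H and 4.61 and 4.78 FPKM with Flag-OGT in MHCC-97L, and was listed at 0 in all 4 controls. KCNJ11 was measured at 5.26 and 5.75 FPKM with Flag-OGT against 0.78 and 0.64 FPKM in controls of MHCC-97H, and at 5.03 and 4.41 FPKM with Flag-OGT against 0.84 and 0.73 FPKM in controls of MHCC-97L, a log2 difference of 1.93 ± 0.08 and 1.68 ± 0.08 (limma, adjusted p = 7.02e-09 and 2.42e-08).

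The summed level of the 43 genes was lower with Flag-OGT, with conjugate exporters a smaller share of it and soluble ATPases a larger one. The sum was 301 and 298 FPKM with Flag-OGT against 535 and 544 FPKM in controls of MHCC-97H, and 266 and 272 FPKM with Flag-OGT against 558 and 553 FPKM in controls of MHCC-97L. FPKM over all genes summed to between 510449 and 613101 per library, with the Flag-OGT libraries the higher in each line. Bile and conjugate exporters made up 2.40% and 1.93% of the ABC sum with Flag-OGT against 31.9% and 31.7% in controls of MHCC-97H, and 1.43% and 1.24% with Flag-OGT against 40.03% and 39.5% in controls of MHCC-97L. Soluble ATPases made up 51.3% and 50.7% with Flag-OGT against 32.1% and 33.1% in controls of MHCC-97H, and 50.4% and 50.2% with Flag-OGT against 21.5% and 21.1% in controls of MHCC-97L. ABCF2 was the highest ABC gene in every Flag-OGT library and ABCC2 in every control. Genes at 1 FPKM or more numbered 21 and 21 with Flag-OGT against 23 and 23 in controls of MHCC-97H, and 22 and 23 with Flag-OGT against 26 and 26 in controls of MHCC-97L. The soluble ATPase sum itself was 155 and 151 FPKM with Flag-OGT against 172 and 180 FPKM in controls of MHCC-97H, and 134 and 137 FPKM with Flag-OGT against 120.1 and 117 FPKM in controls of MHCC-97L, so in MHCC-97H its share was higher while its sum was lower. These are descriptions and carry no test.

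**Figure D3:**
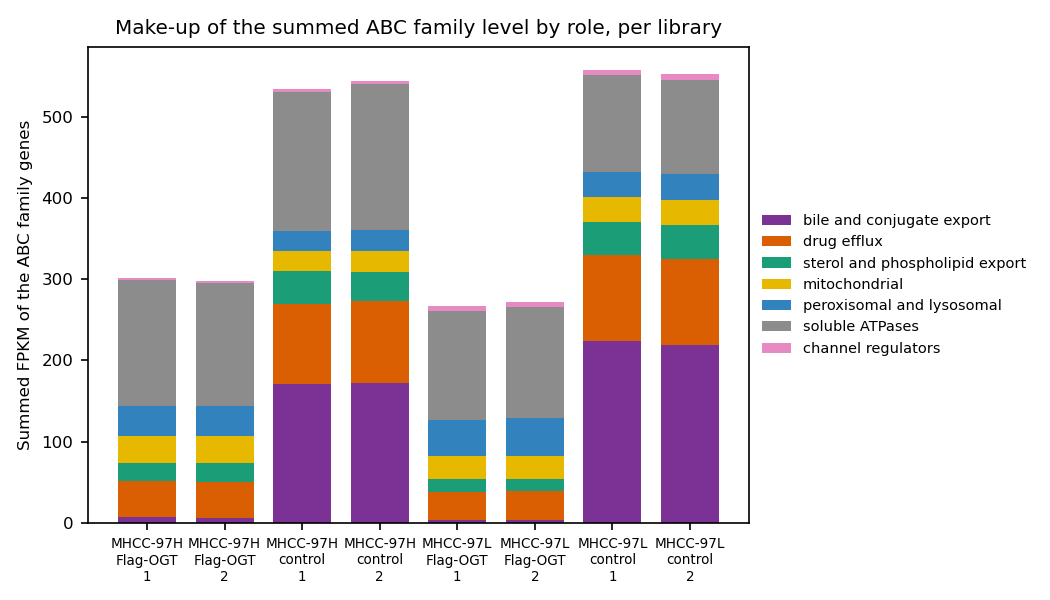
Summed FPKM of the 43 ABC genes in each library, stacked by role, with the Flag-OGT libraries left of the controls of the same line. The conjugate exporter segment is 3.38 to 7.24 FPKM in Flag-OGT libraries and 171 to 223 FPKM in controls, while the soluble ATPase segment lies between 117 and 180 FPKM in all 8.

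Several ABC genes differed between the lines without Flag-OGT. In MHCC-97H controls against MHCC-97L controls, 22 of the 30 members were called, 7 higher and 15 lower in MHCC-97H, where 65.4% of all tested genes were called (26.5% higher and 38.9% lower). Median-of-ratios scaling gave 9 higher and 12 lower, and moved the higher share of all calls to 54.6%, against 40.5% as reported. By at least 1 on the log2 scale, 1 member was higher and 4 were lower, where 2.19% and 5.45% of all tested genes were. ABCG1 was the member lowest in MHCC-97H relative to MHCC-97L, at 0.12 and 0.09 FPKM in MHCC-97H controls against 4.57 and 4.61 FPKM in MHCC-97L controls, a log2 difference of -2.34 ± 0.07 (limma, adjusted p = 6.08e-09). ABCB1 followed with -1.65 ± 0.07, ABCA3 with -1.35 ± 0.10, ABCA2 with -1.08 ± 0.09 and ABCC6 with -1.0 ± 0.11 (adjusted p of at most 3.17e-05 for each). Of these, ABCG1 and ABCB1 passed the filter through the MHCC-97L controls alone, so the direction of their line difference was set by the filter. ABCA4 was the member most raised in MHCC-97H controls (1.13 ± 0.07, adjusted p = 5.02e-07), followed by ABCE1 (0.96 ± 0.09, adjusted p = 1.02e-05), ABCF1 (0.84 ± 0.05, adjusted p = 7.76e-07) and ABCB10 (0.81 ± 0.08, adjusted p = 1.54e-05). ABCC2 and ABCG2 were not called between the control lines, with log2 differences of -0.09 ± 0.07 and 0.04 ± 0.07 (adjusted p = 0.282 and 0.642). Calls for ABCA7, ABCB5, ABCC1, ABCC10 and ABCF3, all with log2 differences between -0.26 and 0.26, were lost when some library was left out, with highest adjusted p between 0.0695 for ABCF3 and 0.333 for ABCA7.

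With Flag-OGT in both lines the order changed. In MHCC-97H against MHCC-97L, 21 of the 30 members were called, 14 higher and 7 lower, where 69.7% of all tested genes were called (33.6% higher and 36.1% lower). Common-sum and median-of-ratios scaling each gave 18 higher and 6 lower members, and the higher share of all calls, 48.2% as reported, was 62.6% and 60.2% under them. By at least 1 on the log2 scale, 1 member was higher and 1 lower, where 4.24% and 3.59% of all tested genes were. ABCA2 was higher, at 10.5 and 10.9 FPKM in MHCC-97H with Flag-OGT against 3.13 and 2.92 FPKM in MHCC-97L with Flag-OGT, a log2 difference of 1.54 ± 0.09 (limma, adjusted p = 5.56e-07). ABCC9 was lower, at 1.35 and 1.37 FPKM in MHCC-97H with Flag-OGT against 4.83 and 5.51 FPKM in MHCC-97L with Flag-OGT, with -1.38 ± 0.08 (adjusted p = 5.58e-07). ABCG1 and ABCB1, the widest of the control line differences, stood at 0.29 ± 0.07 (adjusted p = 0.00279) and 0.14 ± 0.07 (adjusted p = 0.125). Calls for ABCA1, ABCC3, ABCC5, ABCC8, ABCC10 and ABCD3 in this comparison were lost without some library, with highest adjusted p between 0.0509 for ABCC5 and 0.239 for ABCC10. The Flag-OGT and line comparisons share libraries, so these values restate 1 set of 8 measurements.

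The change with Flag-OGT differed between the lines for 23 of the 30 members, 14 higher and 9 lower in MHCC-97H, where 63.3% of all tested genes were called (33.9% higher and 29.4% lower in MHCC-97H). The 5 members higher in MHCC-97H by at least 1, a rule met by 9.08% of all tested genes, were ABCG1, ABCA2, ABCA3, ABCC6 and ABCB1. For ABCG1 and ABCB1, which passed the filter through the MHCC-97L controls alone, this direction was set by the filter. Only ABCA4 was lower by at least 1, as were 3.31% of all tested genes. With ABCA4 listed at 0.01 FPKM in every Flag-OGT library, this restates its difference between the control lines. The receptors FXR and PXR were high in the same control line as ABCG1, ABCB1 and ABCB4. Other bile and conjugate exporters were divided. ABCB11 was listed at 0.26 and 0.14 FPKM in MHCC-97H controls and 0.14 and 0.20 FPKM in MHCC-97L controls. ABCC2 was not called between the control lines (log2 difference -0.09, limma, adjusted p = 0.282). ABCC3 and ABCC6 were higher in MHCC-97L controls (log2 differences -0.71 and -1.0, limma, adjusted p = 2.03e-05 and 3.17e-05). FXR (NR1H4) was measured at 0.05 and 0.04 FPKM with Flag-OGT and 0.26 and 0.30 FPKM in controls of MHCC-97H, and at 0.13 and 0.17 FPKM with Flag-OGT and 9.23 and 8.92 FPKM in controls of MHCC-97L. PXR (NR1I2) was listed at 0 and 0.02 FPKM with Flag-OGT and 0.07 and 0.07 FPKM in controls of MHCC-97H, and at 0 and 0 FPKM with Flag-OGT and 2.33 and 2.49 FPKM in controls of MHCC-97L. Between the control lines their log2 differences were -2.98 ± 0.07 and -1.67 ± 0.07 (limma, adjusted p = 1.77e-09 and 3.74e-08). Both receptors passed the filter through the MHCC-97L controls alone, so that direction was set by the filter. The part of either receptor in the ABC levels was not tested.

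**Figure D4:**
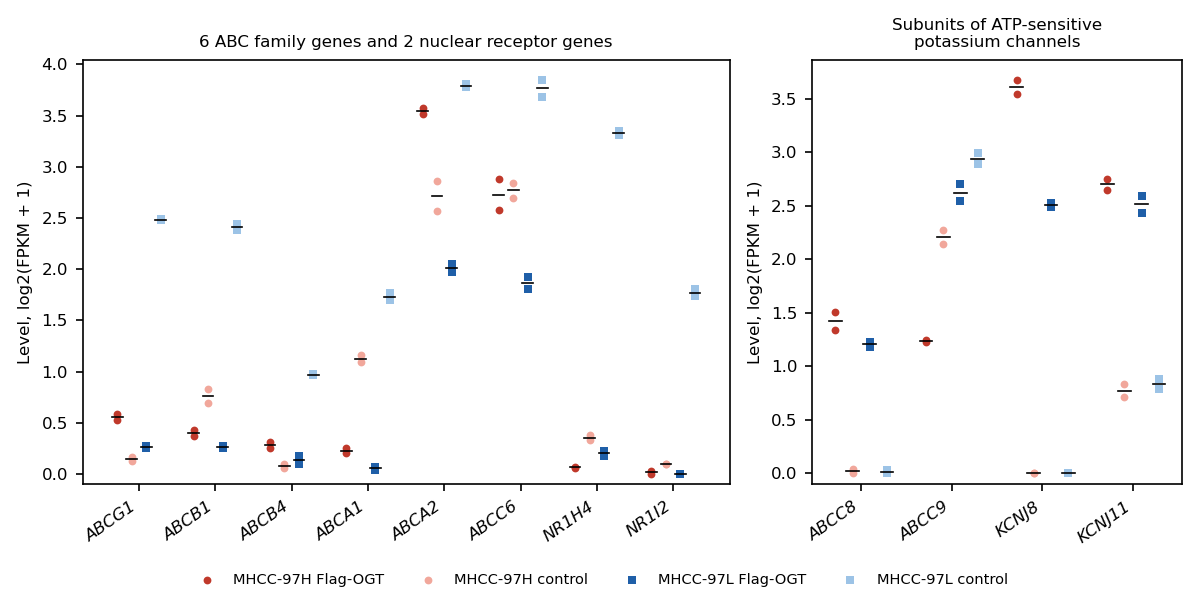
Level in each library, as log2(FPKM + 1), of 6 ABC genes with FXR (NR1H4) and PXR (NR1I2) on the left, and of the potassium channel subunits on the right. Points are libraries, 2 per group, and bars are group means, with Flag-OGT left of control and MHCC-97H left of MHCC-97L. The MHCC-97L controls stand above the other groups for ABCG1, ABCB1, ABCB4, ABCA1, ABCA2, ABCC6, NR1H4 and NR1I2, and ABCC8, KCNJ8 and KCNJ11 are higher in the Flag-OGT libraries.

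Genes that work with or control ABC proteins were described in 10 lists. Over all tested genes, 48.2% were called higher and 36.3% lower with Flag-OGT in MHCC-97H. In MHCC-97L these shares were 50.1% and 34.7%. They stand beside the counts of every list below. Of 18 tested regulators of ABC genes, the MHCC-97H comparison called 6 higher and 11 lower and the MHCC-97L comparison 4 higher and 13 lower, with median log2 differences of -0.91 and -1.63 beside 0.15 and 0.19 over all tested genes. FOXA2, a liver pioneer factor, had log2 differences of -4.84 and -4.38 in MHCC-97H and MHCC-97L. HNF4A had -3.91 and -3.85. NFE2L2 (NRF2), the factor of the antioxidant response, was measured at 7.90 and 8.34 FPKM with Flag-OGT against 33.5 and 32.9 FPKM in controls of MHCC-97H, and at 4.59 and 5.72 FPKM with Flag-OGT against 22.0 and 21.6 FPKM in controls of MHCC-97L (log2 differences -1.91 ± 0.08 and -1.90 ± 0.08, limma, adjusted p = 7.19e-09 and 9.00e-09). SREBF2, which controls cholesterol synthesis genes, rose, with log2 differences of 2.69 ± 0.06 and 1.46 ± 0.06 (adjusted p = 2.58e-11 and 2.69e-09).

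Glutathione synthesis and conjugation, the source of many ABCC substrates, was tested with 15 genes, of which 4 were higher and 9 lower in MHCC-97H with Flag-OGT, and 4 higher and 11 lower in MHCC-97L (median log2 differences -0.65 and -0.89). GSTA1 was listed at 0 in all 4 Flag-OGT libraries and measured at 57.3 and 61.7 FPKM in MHCC-97H controls and 60.5 and 53.3 FPKM in MHCC-97L controls. MGST1 fell, with log2 differences of -3.85 and -3.84, while GSTP1 rose, with 1.97 and 1.14 (adjusted p of at most 1.77e-08 for each). Among 9 tested hepatocyte carriers, 2 rose and 7 fell in each line. SLC51B, a subunit of the basolateral bile salt exporter, was measured at 0.05 and 0 FPKM with Flag-OGT against 17.7 and 20.2 FPKM in controls of MHCC-97H, and at 0.10 and 0.36 FPKM with Flag-OGT against 52.6 and 46.7 FPKM in controls of MHCC-97L. SLC47A1 (MATE1), a canalicular cation exporter, and SLCO1A2, an organic anion importer, were the 2 that rose, SLC47A1 by 2.38 ± 0.07 and 0.37 ± 0.07 and SLCO1A2 by 0.28 ± 0.08 and 0.42 ± 0.08. Of 13 tested cholesterol efflux and lipoprotein partners, 3 rose and 7 fell in each line. PLTP, the phospholipid transfer protein, rose, with log2 differences of 5.30 and 3.94, and CAV1, the caveolar coat protein, fell, with -9.13 and -8.68.

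Partners of the organelle members were called in both directions, where 84.6% of all tested genes were called in MHCC-97H and 84.8% in MHCC-97L. Of 16 tested peroxisomal genes, 5 were called higher and 8 lower in MHCC-97H, and 6 higher and 7 lower in MHCC-97L (median log2 differences -0.19 and -0.12). PEX19, the chaperone that brings membrane proteins to peroxisomes, was higher with Flag-OGT, with log2 differences of 1.08 ± 0.07 and 0.91 ± 0.07 (limma, adjusted p = 1.05e-07 and 4.66e-07). Of 10 tested cobalamin genes, 5 were called higher and 4 lower in MHCC-97H, and 5 higher and 3 lower in MHCC-97L (median log2 differences 0.23 and 0.17). Methionine synthase (MTR) rose, with log2 differences of 1.76 and 1.44, as did the cobalamin trafficking protein MMACHC, with 1.44 and 1.16, while the plasma carrier TCN2 fell, with -3.59 and -2.43. Of 18 tested haem and iron-sulphur genes, 13 were called higher and 4 lower in MHCC-97H, and 11 higher and 7 lower in MHCC-97L (median log2 differences 0.38 and 0.53). PPOX, the penultimate enzyme of haem synthesis, rose, with log2 differences of 1.51 and 1.18. Of 14 tested ribosome recycling and initiation partners, 5 were called higher and 9 lower in MHCC-97H, and 6 higher and 6 lower in MHCC-97L (median log2 differences -0.27 and -0.03). HBS1L, which works with ABCE1 in ribosome rescue, rose, with log2 differences of 1.66 and 1.92, and the termination factor GSPT2 fell, with -3.14 and -2.71. Of the ABC proteins under other names, TAP1 was not called in either line, TAP2 rose by 0.35 in MHCC-97L, and CFTR was listed at 0 in all 8 libraries.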

How the data were processed

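RNA-seq of 8 libraries was used, 2 in each of 4 groups. The authors deposited a table of FPKM values per gene symbol. The submitters' processing notes name HISAT2 2.1.0, Bowtie2, RSEM 1.2.4, DESeq2 1.18.1 and hg19 without saying which made the FPKM. The sources used here do not say whether counting used strand. Of 18928 rows, 26 with date-like symbols were left out. Of the 45 ABC symbols matched, 2 are not reported here and enter no count, sum or figure of the family, though all genes entered the fits. Depth is unknown and no whole reads could be recovered from the rounded values, so counting intervals are not given.

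Genes with a mean of at least 0.5 FPKM (13553) were fitted on log2(FPKM + 1) with limma 3.58.1 in R 4.3.3, with 4 group means, trended empirical Bayes and Benjamini-Hochberg adjustment over all of them, at 0.05. The method was tested on simulated data. Library values are given for members called with Flag-OGT by at least 1 on the log2 scale, those with a group mean of at least 10 FPKM, and ABCA1, ABCB1, ABCB4, ABCB11, ABCC1, ABCC2, ABCC3, ABCG1, ABCG2 and ABCE1. Other genes are named from lists, up to 2 at either end. The members and lists were chosen with earlier results of these data known. Overlaps and neighbours came from GENCODE, start-site sequences from RefSeq. The alternatives took 0.1 as pseudocount, no filter, a mean of at least 2 FPKM, scaling to a common sum or by median of ratios, 2 groups alone, a replicate block, and leaving out each library.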

Additional observations from a re-analysis of the deposited data

Results flagged for a closer look

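The change with Flag-OGT differed between MHCC-97H and MHCC-97L for 23 of the 30 tested ABC genes, by limma's test of the difference itself (adjusted p under 0.05 over all tested genes, of which 63.3% passed). Each value here is the log2 difference in MHCC-97H minus that in MHCC-97L. It was 2.63 for ABCG1, 2.61 for ABCA2, 2.04 for ABCA3, 1.86 for ABCC6 and 1.79 for ABCB1, the members furthest apart. For ABCG1 and ABCB1 the direction was set by the filter, which they passed through the MHCC-97L controls alone. Smaller positive values were 0.96 for ABCC3, 0.78 for ABCA1, 0.58 for ABCB8, 0.57 for ABCC1, 0.42 for ABCC4, 0.41 for ABCB6, 0.38 for ABCG2, 0.37 for ABCC5 and 0.35 for ABCD4. Negative values were -1.13 for ABCA4, -0.91 for ABCE1, -0.70 for ABCA7, -0.65 for ABCC9, -0.49 for ABCF1, -0.39 for ABCB5, -0.33 for ABCF2, -0.32 for ABCB10 and -0.28 for ABCC2. The ABCA4 value restates its difference between the control lines, since it was listed at 0.01 FPKM in every Flag-OGT library. The calls of ABCB5, ABCB10, ABCC2 and ABCC4 were lost when some library was left out, with adjusted p of up to 0.0557, 0.101, 0.124 and 0.0567. No group of 2 libraries was searched for outlying samples.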

How the results depend on the processing

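Counts of called ABC genes over all settings ran from 20 to 30 in MHCC-97H and 21 to 34 in MHCC-97L with Flag-OGT against control, 19 to 27 for the difference of these changes, 18 to 25 between the control lines and 16 to 30 between the lines with Flag-OGT. In each, the no-filter fit, which tests 43 members, gave the highest count, and for the last comparison a left-out library gave as few as 17. The low ends were those of the fit with a mean of at least 2 FPKM, which tests 23 members. That fit called, in the same order of comparisons, 9562, 9403, 7200, 7571 and 7849 of all 11001 genes it tested. The no-filter fit called 12805, 13265, 9021, 9172 and 10250 of all 18902. Fits with a replicate block called 25 in MHCC-97H and 28 in MHCC-97L with Flag-OGT against control, 24 for the difference of these changes, 22 between the control lines and 19 between the lines with Flag-OGT. Libraries with the same replicate number deviated together with correlations of -0.21 to 0.31, and the labels give no pairing. Without a filter, 13 members were lower in MHCC-97H against MHCC-97L with Flag-OGT, where the filtered fit called 7. The 6 added were ABCB6 and the members tested only without the filter, ABCA6, ABCA9, ABCA10, ABCA13 and ABCD2. ABCF2 turned to -0.13 (adjusted p = 0.034) in MHCC-97H under median-of-ratios scaling, where its uncalled value was 0.07 (adjusted p between 0.034 and 0.834 over all settings). For single members, 1131 values with a library left out kept their direction and side of the threshold, 56 lost the call and 13 gained it. Under the other settings 931 kept both, 27 lost the call and 26 gained it. Sign changes between values that were never called are counted as kept. A left-out library leaves 1 library in its group, assumed to vary like the others.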
